A study of Rattus norvegicus with 6 samples.

Results

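The voltage-gated and ligand-gated ion channel genes described here are those whose array probe carries a rat symbol starting with Kcn (without the Kcnk two-pore group), Scn, Cacn, Grin, Gria, Grik, Gabr or Chrn. A probe counted as above background where its brightness, spot median minus local background, passed the 95th percentile of that array's negative controls on at least 3 of 6 arrays. That left 35 of 175 such probes, for 33 of 150 genes, out of 41012 probes and 23260 above background in all. Marrow cells from male rats aged 8 weeks were cultured under osteogenic conditions until RNA was taken on day 10. The 3 control samples had no treatment and the 3 other samples were treated with low-intensity pulsed ultrasound (LIPUS), short bursts of sound waves used as a mechanical stimulus. Each sample was put on 1 single-colour Agilent array labelled with Cy3. Nothing in the labels tells if replicates were separate animals or cultures, so p-values measure the spread between these samples, which may be technical.

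Ion channels are membrane proteins that open a pore for ions. Voltage-gated potassium, sodium and calcium channels respond to the membrane potential, and they are built from a pore-forming subunit and accessory subunits that set its trafficking and gating. Ligand-gated channels open when a transmitter binds. The transmitter is glutamate for the Gria and Grik subunits and glutamate or glycine for the Grin subunits. For the Gabr subunits it is GABA, and for the Chrn subunits acetylcholine. Ion channels are best known from nerve and muscle, and several, among them L-type calcium channels and glutamate receptors, have been described in bone cells.

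The negative-control limit ranged from 98.8 to 133 brightness units over the control arrays and from 49.6 to 101 over the LIPUS arrays, and 53.5% to 61.9% of all probes lay above it. No channel probe reached the scanner limit. Of the osteoblast markers, all 9 on the array under a symbol were above background, 2 of them higher in LIPUS, and 4 were at the scanner limit on every array. Macrophage markers were present as well, with 6 of 10 lower in LIPUS, with changes from −2.99 for Clec10a to −0.98 for Csf1r. The other 4 were at the scanner limit, C1qb and Lyz2 on 6 arrays, C1qa on 5 and Cd68 on 3, where a fall cannot be seen in full. The mean level of the list, these 4 included, ran from 4.80 to 4.94 in control and from 3.77 to 3.94 in LIPUS on the log2 scale defined below. Of 3 endothelial markers above background 2 were lower, with a mean level of 0.40 to 0.55 in control and −0.83 to −0.54 in LIPUS. Of 8 neuron markers on the array only Tubb3 was above background. Of 4 Schwann cell, 2 contractile cell and 3 mast cell markers above background 0 were called, of 4 adipocyte markers 1 was higher, and of 3 megakaryocyte markers 1 was higher and 1 lower. The adipocyte marker Fabp4 was at the scanner limit on 4 arrays. Higher and lower are calls of the test defined below, which called 2.89% of all tested higher and 3.74% lower. Of tested genes with a symbol it called 8.69%. In these bulk samples, fewer cells of a type and less RNA per cell cannot be told apart. Control 1 and control 2 had a grid tilt of 1.27 and 1.29 vertical units per 1000 horizontal units, and the other 4 arrays 0.713 to 0.813. The tilts were read as 2 slides, which the labels do not name, the second with control 3 and the 3 LIPUS arrays.

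Most channel genes were not above background on 3 or more of the 6 arrays. Of the 150 genes 33 were, or 22.0%, where 64.0% of all 8899 symbols on the array were. The share was 4 of 28 for pore subunits of voltage-gated potassium channels, 5 of 21 for calcium channel subunits, 4 of 14 for ionotropic glutamate receptor subunits, 4 of 18 for GABA-A receptor subunits and 2 of 16 for nicotinic receptor subunits. Of the 175 probes 77 were above the limit on no array, 44 on 1, 19 on 2 and 23 on all 6. Between 36 and 60 of them passed on a single array, the highest number on control 3.

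**Figure D1:**
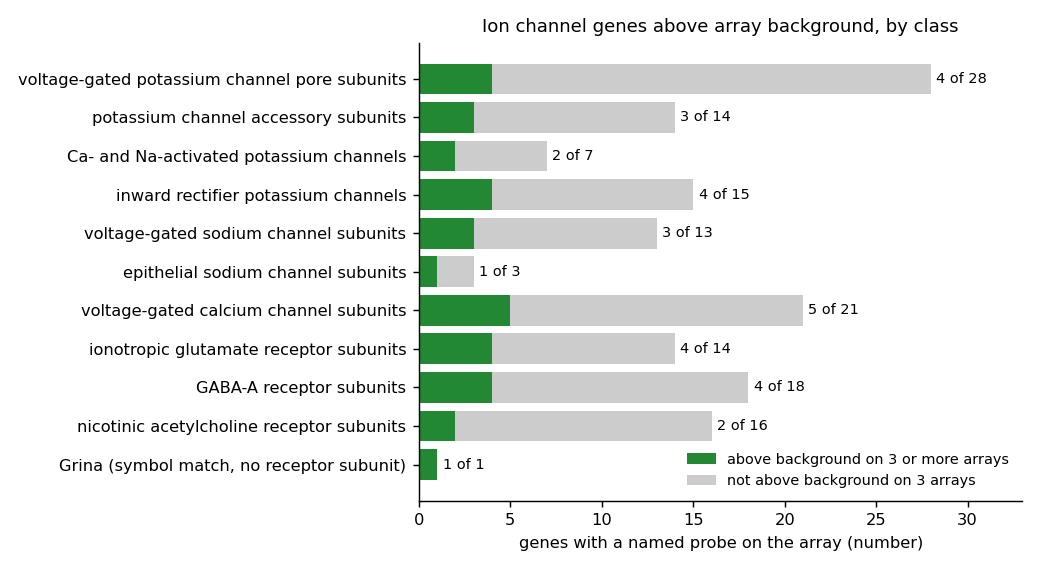
Number of ion channel genes on the array in each class (x axis), divided into genes above background on 3 or more of the 6 arrays (green) and the rest (grey). In every class of subunits the green part is smaller than the grey part, from 2 of 16 nicotinic receptor genes to 1 of 3 epithelial sodium channel genes.

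The filter itself favours members that differ when a gene passes through 1 group. This was the case for 1 gene, Kcnj9, above background on the 3 control arrays and on no LIPUS array. The 5 other probes just inside the limit, with 3 arrays, were those of Kcna1, Kcnma1 and Scn11a and the second probes of Kcnj3 and Scn2a. Just outside were 19 probes with 2 arrays. Among them Kcnab2, an accessory subunit gene of voltage-gated potassium channels, read 149, 112 and 155 brightness units on the control arrays, where the limit on control 2 was itself 112.

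To compare the groups, brightness was corrected for background, put on the log2 scale and set relative to the 75th percentile of each array, so a level of 0 is that percentile. A change is the LIPUS mean less the control mean, given with limma's moderated standard error (SE) and fitted over 21847 genes or unnamed probes, and a gene was called at an adjusted p under 0.05 (Benjamini-Hochberg). Of the 33 channel genes, 2 rose (Grin3b and Cacnb3), 1 fell (Kcne3) and 30 did not pass. That is 9.09% called, beside 6.63% of all tested genes and probes and 8.69% of tested genes with a symbol, so the share is near the background. By direction, 2.89% of all tested were higher and 3.74% lower. The groups did not overlap for 9 of the 33 (27.3%), 6 higher and 3 lower, against 27.2% of all tested (14.4% higher, 12.7% lower). Before adjustment, 9 members (27.3%) and 22.1% of all tested had a p under 0.05. The median log2 change was 0.13 over the 33 and 0.03 over all tested.

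The split between directions depends on the scaling. Scaling the arrays to spike-in controls, which rests on 3 spike-in probes, moved the median of all genes from 0.03 to −0.26. The channel genes then had 1 rise (Grin3b) and 4 falls (Kcne3, Kcnj9, Kcnn4 and Kcns3). Kcnj9 passed the filter through the control arrays alone, which favours its fall. On that scale the whole array had 220 rises and 2721 falls in place of 632 and 817. With the authors' value table as the source, 3.7% of all tested were called and 1 channel gene (Grin3b), and with slide as a block 1.29% and again Grin3b. With median centring the array had 472 rises and 990 falls, and the channel genes 1 and 1. Changes are therefore relative to the 75th percentile of each array.

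**Figure D2:**
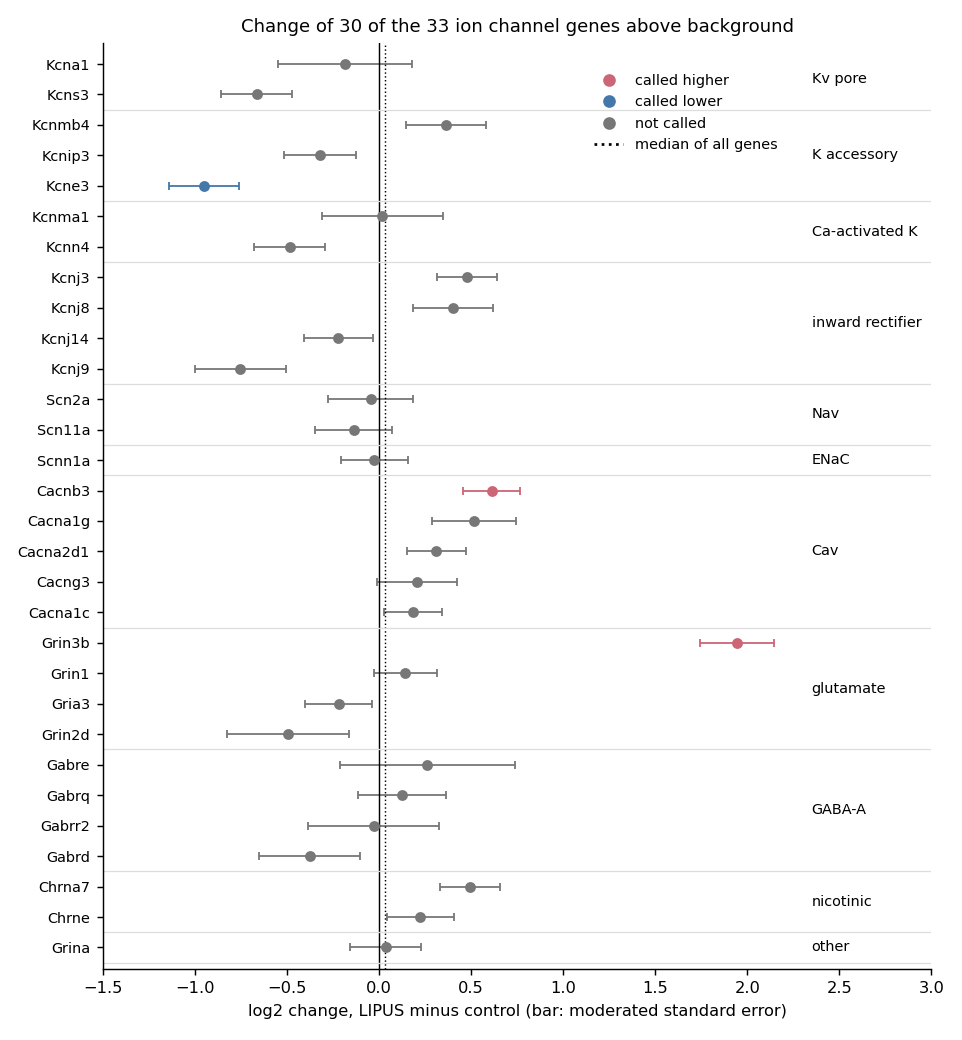
Log2 change of 30 of the 33 ion channel genes above background, LIPUS minus control (x axis), grouped by class, with the moderated standard error as a bar. Grin3b stands at 1.94, Cacnb3 at 0.61 and Kcne3 at −0.95, while the genes in grey lie between −0.75 and 0.52 and did not pass the test.

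Grin3b (NM_133308) had by far the largest change of the channel genes. It encodes GluN3B, a glycine-binding subunit of NMDA-type glutamate receptors that is best known from motor neurons. Its log2 level was −0.83, −1.13 and −1.16 in the 3 control samples, against 1.25, 0.67 and 0.79 with LIPUS. Every LIPUS array lay above every control array, with a gap wider than the spread within either group. Before scaling, the probe read 425, 240 and 346 brightness units in control and 1885, 993 and 1200 in LIPUS, above the limit on all 6 arrays. Grin3b rose 3.85-fold, by 1.94 ± 0.20 on the log2 scale (95% interval 1.50 to 2.39, limma adjusted p = 0.000893). The call held whichever array was left out, at 1.77 to 2.06. With slide as a block the change was 2.06 ± 0.28 (limma adjusted p = 0.0319). Slide as a block means a fixed block unless a random block is named. All LIPUS arrays lie on the second slide as read from the tilts. Every value with the fixed block is therefore LIPUS minus control 3 and rests on that 1 control array. Grin3b has 1 probe on the array, so no second probe bears on it.

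The gene model of Grin3b overlaps that of Tmem259 by 72 bases in the RefSeq annotation of GRCr8. Tmem259 was not measured under a symbol here, and Wdr18, the next gene on the other side, read −0.09 ± 0.18 (limma adjusted p = 0.811).

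The other glutamate receptor subunits above background did not pass. Grin1 (NM_017010) encodes GluN1, the subunit that every NMDA receptor contains, and read −1.41, −1.38 and −1.70 in control and −1.33, −1.22 and −1.51 in LIPUS. The groups overlapped, and its change was 0.14 ± 0.17 (95% interval −0.24 to 0.53). Grin2d (NM_022797), a glutamate-binding NMDA subunit gene, read 2.29, 3.31 and 1.74 in control and 1.87, 2.07 and 1.91 in LIPUS. Control 2 was far above the other arrays, and the change of −0.49 ± 0.33 turned to 0.21 with slide as a block. The AMPA receptor gene Gria3 (NM_032990) had a difference of −0.22 ± 0.18, and of 0.10 with slide as a block. The 10 other genes of this class on the array, Gria, Grik and Grin genes alike, were not above background on 3 arrays. Grina (NM_153308), which shares the Grin prefix but encodes a membrane protein of the TMBIM family and no receptor subunit, had a mean of 3.34 ± 0.28 over the control arrays and 3.37 ± 0.16 over the LIPUS arrays (SD, n = 3 per group), a change of 0.04 ± 0.19 (SE).

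All 5 calcium channel genes above background read higher in LIPUS, although only Cacnb3 of them passed. Of all 33 channel genes 19 read higher, and the median change over all tested was 0.03. Cacnb3 (NM_012828) encodes a beta subunit, which binds the pore subunit inside the cell and brings it to the membrane. Its level read 2.46, 2.62 and 2.59 without LIPUS and 3.10, 3.27 and 3.14 with it. The SD within a group was 0.08 in control and 0.09 in LIPUS (n = 3 each), and the groups did not overlap. Cacnb3 rose 1.53-fold, by 0.61 ± 0.15 (95% interval 0.27 to 0.96, limma adjusted p = 0.0461). It was called in 5 of 20 alternatives, so the settings named next are not all that ended the call. This call is marginal: it ended without control 1, control 2 or any 1 LIPUS array (limma adjusted p = 0.0962 to 0.158), with slide as a block (0.58 ± 0.19, 0.206), with spike-in scaling (0.31 ± 0.23, 0.383) and in the authors' value table (0.70 ± 0.14, 0.0560).

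Cacna2d1 (NM_012919), the alpha-2-delta subunit gene and target of gabapentin, read 2.96, 2.96 and 2.75 in control and 3.30, 3.07 and 3.24 in LIPUS. Its groups did not overlap, but the change of 0.31 ± 0.16 did not pass (95% interval −0.05 to 0.67). Cacna1c (NM_012517) encodes the pore of the main L-type channel of bone cells and heart. Its mean was −1.01 ± 0.11 without and −0.83 ± 0.11 with LIPUS (SD, n = 3 per group), a change of 0.19 ± 0.16 (SE). The other Cacna1c probe was above background on no array. Cacna1g (NM_031601), a T-type pore gene above background on 2 control and 3 LIPUS arrays, read −2.03, −1.71 and −2.14 against −1.91, −1.29 and −1.13. Its change of 0.52 ± 0.23 had the smallest p of the class after Cacnb3 (limma adjusted p = 0.219). The gamma subunit gene Cacng3 (NM_080691) had a difference of 0.21 ± 0.22. The common direction of the class depends on the scaling: with spike-in controls Cacna1c read −0.11 and Cacng3 −0.09, and in the authors' value table Cacng3 read −0.12.

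**Figure D3:**
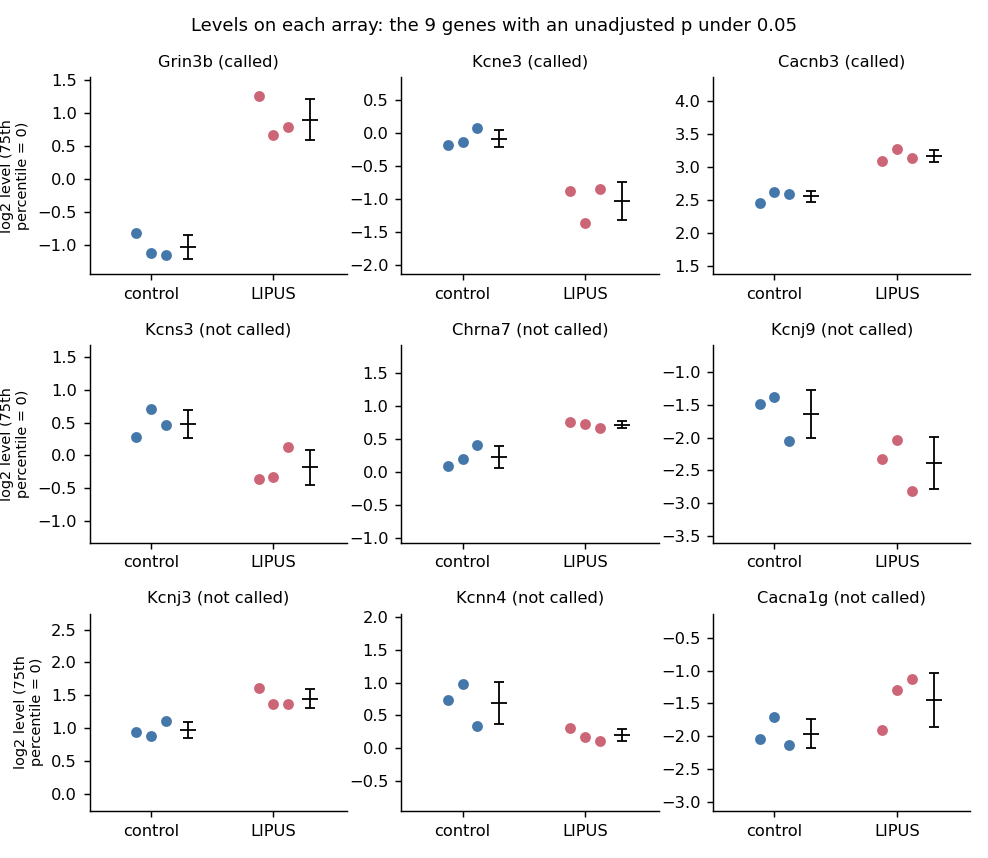
Log2 level on each array (points, 3 control in blue and 3 LIPUS in red, y axis spanning 3 log2 units in every panel) with the group mean and SD (black), for the 9 channel genes with an unadjusted p under 0.05. The groups are apart for Grin3b, Kcne3, Cacnb3, Kcns3, Chrna7, Kcnj3 and Kcnn4 and overlap for Kcnj9 and Cacna1g.

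Among potassium channel genes, the accessory subunit gene Kcne3 fell. Kcne3 (NM_022235) encodes a single-span protein that assembles with KCNQ1 and other voltage-gated pores and changes their gating. Its level read −0.17, −0.14 and 0.08 without LIPUS and −0.88, −1.37 and −0.84 with it. All 3 LIPUS arrays lay below all control arrays, with LIPUS 2 the lowest. Kcne3 fell 1.93-fold, by 0.95 ± 0.19 on the log2 scale (limma adjusted p = 0.0181). It was called in 13 of 20 alternatives, and not with no filter on background (limma adjusted p = 0.0589). The call ended without control 1 (limma adjusted p = 0.0548), control 2 (0.0505) or LIPUS 2 (0.0676), with slide as a block (−1.11 ± 0.25, 0.0959) and in the authors' value table (−1.33 ± 0.31, 0.0774). The probe of its partner gene Kcnq1 was above background on 2 LIPUS arrays and no control array. It read 66, 87 and 29 brightness units in control and 197, 43 and 68 in LIPUS. The limit was 49.6 on LIPUS 3 and 112 on control 2, so LIPUS 3 passed with a dimmer reading than control 2. With no filter on background the difference of Kcnq1 was 0.52 ± 0.28, which did not pass (limma adjusted p = 0.410). The macrophage markers given above fell in the same samples, and their part in the fall of Kcne3 was not tested.

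The promoters of Kcne3 and Cacnb3 are shown because these are the called channel genes with an entry in the RefSeq promoter table of GRCr8, which holds 107 of the 150 genes and not Grin3b. Each line gives the 250 bases before the transcript start, 5′ to 3′ on the plus strand, with capitals where a script found the GC box GGGCGG on either strand.
Kcne3 promoter: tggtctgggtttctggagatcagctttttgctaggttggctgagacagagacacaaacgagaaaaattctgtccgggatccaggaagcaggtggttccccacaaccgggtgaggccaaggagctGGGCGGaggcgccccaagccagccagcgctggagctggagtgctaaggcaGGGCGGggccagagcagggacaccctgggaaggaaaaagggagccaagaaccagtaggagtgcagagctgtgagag
Cacnb3 promoter: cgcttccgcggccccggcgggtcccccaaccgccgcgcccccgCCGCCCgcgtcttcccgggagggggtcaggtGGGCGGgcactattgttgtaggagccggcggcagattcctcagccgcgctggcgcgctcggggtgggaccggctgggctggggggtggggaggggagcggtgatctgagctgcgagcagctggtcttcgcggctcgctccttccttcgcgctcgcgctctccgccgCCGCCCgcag
The Kcne3 stretch lies at chr1:163935785-163936034 and the Cacnb3 stretch at chr7:131666301-131666550. Both hold the GC box, 2 copies for Kcne3 and 3 for Cacnb3, as do 30.5% of all promoters in the table and 38.9% of those of protein-coding genes. They differ in CpG content, with 7 CpG dinucleotides and 59.6% GC for Kcne3 and 35 and 76.4% for Cacnb3, where the median of protein-coding genes was 8 and 54.0%. Neither holds the RUNX core TGTGGT, the AP-1 site TGANTCA, the cAMP response element TGACGTCA or the TATA box TATAAA, searched on both strands. Those letters occur in 13.3%, 5.69%, 1.89% and 12.1% of protein-coding promoters. Over the channel genes, promoters of the 22 measured genes with an entry had a median of 17 CpG dinucleotides and those of the 85 others 11. The GC box was in 64.0% and 45.6% of their promoters. The same split was not made for all genes on the array, so nothing particular to channel genes is read from it. In the same annotation the model of Kcne3 overlaps that of the long noncoding RNA LOC100912071 by 6964 bases. The model of Cacnb3 overlaps by 12276 bases that of Tuba1c, which read 0.28 ± 0.17.

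Pore-forming potassium channel genes had differences on both sides of 0 and none passed. Kcns3 (NM_031778), an electrically silent subunit that modifies other voltage-gated pores, read 0.27, 0.70 and 0.47 in control and −0.36, −0.32 and 0.13 in LIPUS. The groups did not overlap, and its change of −0.66 ± 0.20 came closest to the threshold of the members not called (limma adjusted p = 0.0771). Kcna1 (NM_173095) was above background on 3 arrays only and ranged from −2.76 to −1.36, too wide to give a direction (−0.19 ± 0.37). The other Kcna1 probe was above background on 1 array. Of the remaining accessory genes, Kcnmb4 (NM_023960), a beta subunit of the large-conductance calcium-activated channel, had a difference of 0.36 ± 0.22 and the calcium-sensor gene Kcnip3 (NM_032462) one of −0.32 ± 0.19. Kcnmb4 read 0.023 ± 0.26 with slide as a block.

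Kcnn4 (NM_023021) encodes the intermediate-conductance calcium-activated channel of blood cells and macrophages. It read 0.73, 0.98 and 0.34 in control and 0.30, 0.18 and 0.12 in LIPUS. The groups did not overlap, yet control 3 lay close to LIPUS 1, and the change of −0.48 ± 0.19 did not pass (limma adjusted p = 0.178). It was −0.65 without control 3 (limma adjusted p = 0.0472) and −0.14 against control 3 alone. The part of the falling macrophage markers in this was not tested. Kcnma1 (NM_031828), the large-conductance pore, was above background on 1 control and 2 LIPUS arrays and read −2.21, −2.29 and −1.04 against −2.23, −1.49 and −1.76. Its change of 0.02 ± 0.33 had a 95% interval of −0.72 to 0.75. The other Kcnma1 probe was above background on no array.

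Inward rectifiers let potassium into the cell more easily than out. Kcnj3 (NM_031610) encodes GIRK1, a channel opened by G proteins, and read 0.94, 0.87 and 1.10 in control and 1.61, 1.36 and 1.37 in LIPUS. Its groups did not overlap, but the change of 0.48 ± 0.16 did not pass (limma adjusted p = 0.120), and its second probe above background read −0.13. Another Kcnj3 probe was above background on no array. Kcnj9 (NM_053834), which encodes the partner subunit GIRK3, read −1.49, −1.38 and −2.05 in control and −2.33, −2.03 and −2.81 in LIPUS, and control 3 and LIPUS 2 overlapped. Its measured difference of −0.75 ± 0.25 did not pass (limma adjusted p = 0.108), was −0.34 ± 0.30 with slide as a block (0.633), and was favoured by the filter as said above. No LIPUS array was above background, so the group means give only a bound, at least 1.32-fold lower with each LIPUS array at the dimmest level above background or its own value, whichever was higher. That bound does not hold against control 3 alone. Kcnj8 (NM_017099), the Kir6.1 pore of ATP-sensitive channels, had a difference of 0.40 ± 0.22, but of −0.02 with slide as a block, and control 3 at 0.47 lay among the LIPUS arrays. Kcnj14 (NM_170718) had a difference of −0.22 ± 0.19.

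Sodium channel genes did not pass, and none had groups apart. The pore genes Scn2a (NM_012647) and Scn11a (NM_019265) had differences of −0.05 ± 0.23 and −0.14 ± 0.21, and the second Scn2a probe above background read 0.11. Scn11a was above background on 2 control arrays and 1 LIPUS array. Scnn1a (NM_031548), a subunit of the epithelial sodium channel, which is not voltage-gated, had a difference of −0.03 ± 0.18 (95% interval −0.44 to 0.38). The other Scnn1a probe was above background on no array.

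The 4 GABA-A receptor genes above background, Gabrd (NM_017289), Gabre (NM_023091), Gabrq (NM_031733) and Gabrr2 (NM_017292), encode the delta, epsilon, theta and rho-2 subunits, and all overlapped between the groups. Their changes were −0.38 ± 0.28, 0.26 ± 0.47, 0.13 ± 0.24 and −0.03 ± 0.36. Gabrd shows the split among the control arrays, with −0.77, −1.10 and −1.98, while the LIPUS arrays lay between −1.71 and −1.62. Without control 3 Gabrd was called lower, at −0.73 (limma adjusted p = 0.0389), and with slide as a block it read 0.32. Gabrq, at 0.55, 0.55 and −0.29 in control and 0.39, 0.51 and 0.28 in LIPUS, had its lowest level on control 3. Its difference was 0.68 ± 0.19 with slide as a block and did not pass (limma adjusted p = 0.146).

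Of the nicotinic receptor genes, Chrna7 (NM_012832) encodes the alpha-7 subunit, which forms channels of its own in neurons and macrophages. It read 0.08, 0.19 and 0.40 in control and 0.76, 0.73 and 0.66 in LIPUS. All LIPUS arrays were higher, but the change of 0.49 ± 0.16 did not pass (95% interval 0.14 to 0.85, limma adjusted p = 0.105). Without control 3 it was called higher, at 0.58 (limma adjusted p = 0.0490). Its 2 other probes were above background on no array. Chrne (NM_017194), the epsilon subunit gene of the muscle-type receptor, had a difference of 0.22 ± 0.18, and its direction turned in the authors' value table (−0.58).

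Genes that supply, clear or sense the transmitters were taken from lists made by function. Beside each count stands the share called over all tested, 6.63%, or 8.69% of genes with a symbol, and nothing particular to a list is read from it. Of 13 measured genes for glutamate, glycine and D-serine, 3 fell, 1 rose and 9 did not pass, with a median change of −0.16 against 0.03 over all tested. The glutamate transporter gene Slc1a3 fell by 1.22 ± 0.17 (limma adjusted p = 0.00346) and Glul, which encodes glutamine synthetase, by 1.11 ± 0.17 (0.00544). Grm4, a metabotropic glutamate receptor gene, rose by 1.17 ± 0.18 (0.00594). The part of the falling macrophage markers in these values was not tested. These 3 held whichever array was left out, and with slide as a block they read −0.998 ± 0.19, −1.18 ± 0.22 and 1.19 ± 0.25 and did not pass (limma adjusted p = 0.0649, 0.0630 and 0.0839). The glutaminase gene Gls2 fell by 0.82 ± 0.21 (limma adjusted p = 0.0497), but not without any 1 array other than control 3 (0.0599 to 0.158), and in the authors' value table the change was −0.17.

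For GABA, 1 of 4 measured genes rose and 3 did not pass: the metabotropic receptor gene Gabbr1 rose by 0.83 ± 0.21 (limma adjusted p = 0.0437), a call that ended without any 1 array other than control 3 (0.0972 to 0.155). With slide as a block Gabbr1 read 0.40. For acetylcholine only the choline transporter gene Slc44a1 was measured, and it rose by 0.60 ± 0.15 (limma adjusted p = 0.0444), though not without any 1 array other than control 3 (0.0962 to 0.150). Of 15 measured genes of calcium entry, release and signalling 1 rose, 2 fell and 12 did not pass, again beside 6.63% called over all tested and 8.69% of genes with a symbol. The calmodulin genes Calm2 and Calm3, which encode the same protein, went opposite ways, by 0.74 ± 0.16 and −0.92 ± 0.20. The Calm2 call ended without control 2 or any 1 LIPUS array (limma adjusted p = 0.0757 to 0.0854) and the Calm3 call without any 1 array other than control 3 (0.0670 to 0.110). Calm3 read −0.50 and Calm2 0.86 with slide as a block. The calcium pump gene Atp2a3 fell by 0.79 ± 0.20 (limma adjusted p = 0.0483), but not without any 1 of the 6 arrays (0.0734 to 0.158). Of 8 measured channel scaffold genes 1 rose and 7 did not pass, beside the same 6.63% and 8.69%: Homer2, which encodes a scaffold of glutamate receptor complexes, rose by 0.97 ± 0.18 (limma adjusted p = 0.0141), though not without control 1 (0.0662) or LIPUS 2 (0.0633). With slide as a block none of these 10 genes was called.

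**Figure D4:**
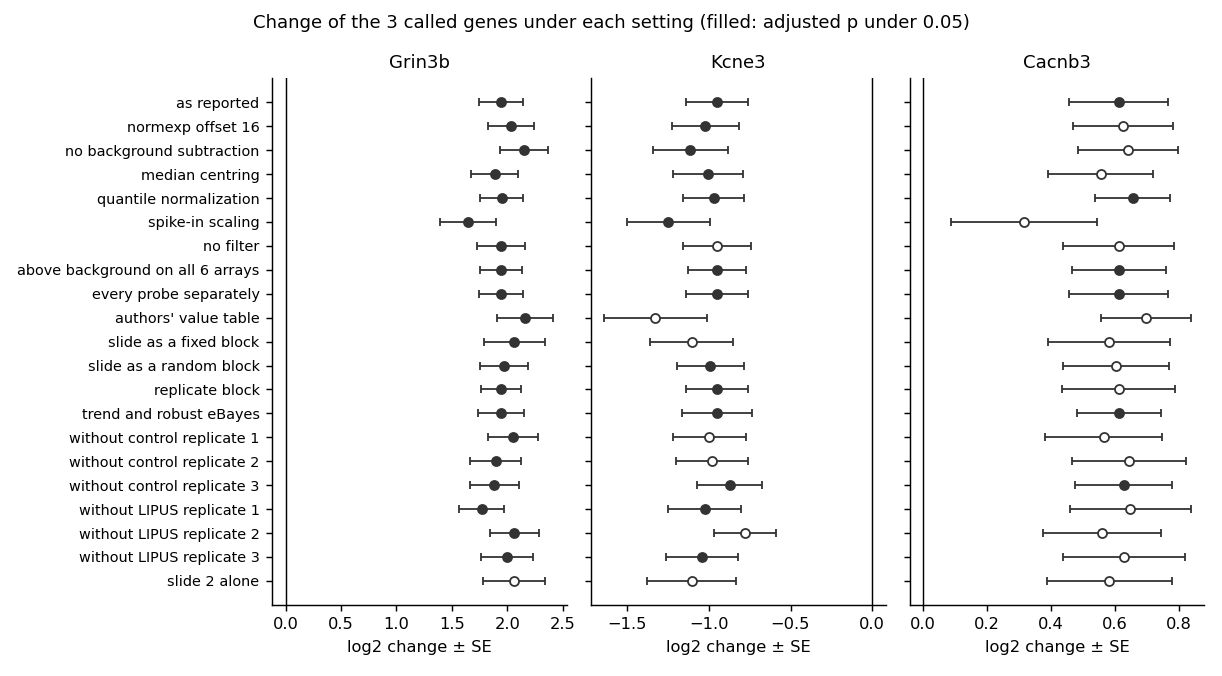
Log2 change with its standard error (x axis) of Grin3b, Kcne3 and Cacnb3 under each way of processing and with each array left out (y axis), filled where the limma adjusted p is under 0.05. Grin3b is filled in all settings except the second slide alone, Kcne3 in 14 of 21 and Cacnb3 in 6 of 21, and all points keep their side of 0.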

How the data were processed

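Brightness was measured on 6 single-colour arrays. Per the file headers, the deposited spot tables hold spot and local background intensity as whole numbers with no normalization, and spot position as a score. The authors' deposited value table is in log2 units: its 75th percentile is 0 in every column, the medians are −2.37, −2.49, −2.53, −2.49, −2.62 and −2.85, and across genes it correlates with the spot levels at 0.955 to 0.977. Its scale is thus log2, its centring the 75th percentile and its direction that of the spot levels, while the background handling stays unknown. It served as an alternative.

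Spot medians were corrected with limma's normexp (offset 50), since the spot tables have no processed signal, put on the log2 scale, averaged per probe and scaled to the 75th percentile of each array. Symbols came from matching accessions, without version, to RefSeq for GRCr8. Each symbol was represented by its brightest probe above background on average, and probes without one were tested on their own. LIPUS and control were compared with limma 3.58.1 (lmFit and eBayes, two-sided, R 4.3.3), Benjamini-Hochberg adjusted over all 21847, and the code was tested on simulated data. The number of arrays limits the precision. Plots used matplotlib 3.10.9 in Python 3.11.15.

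The rule for named genes took Grin3b, every called member, up to 4 others of each class by smallest p, members above background in 1 group only, members whose probes differ in sign, probes next to the background limit, and up to 4 called genes of each of 5 lists (transmitter handling, calcium signalling, scaffolds). It reaches all 33 members, of which 3 enter the counts and medians but are not reported here by name. The 9 cell marker lists are given as counts. Members and lists were chosen with earlier results of these data known. Alternatives changed background correction, scaling, filter, probes, source of values, slide, replicate block, variance prior and arrays. The analysis of the second slide alone was added after seeing the data.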

Additional observations from a re-analysis of the deposited data

How the results depend on the processing

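Grin3b kept its direction in all alternatives and its call in all but the second slide alone, where its change was 2.06 (limma adjusted p = 0.0828). That value equals the one with slide as a block by construction, and limma called 0 genes there, with 7 channel genes at an unadjusted p under 0.05. The count of channel genes called higher was 1 with a normexp offset of 16, without background subtraction, with median centring, spike-in scaling, no filter, the authors' value table, slide as a fixed or random block or the replicate block, and 0 on the second slide alone. It ran from 1 to 3 with 1 array left out. The count called lower was 4 with spike-in scaling, 0 with no filter, the value table, slide as a fixed block or the second slide alone, and 2 with the 6-array filter, the replicate block or a variance trend with robust eBayes. It ran from 0 to 3 with 1 array left out, the highest without control 3 (Gabrd, Kcne3 and Kcnn4 lower, Cacnb3, Chrna7 and Grin3b higher). Their median change was −0.17 with spike-in scaling, 0.035 in the value table and 0.22 with slide as a fixed block or on the second slide alone. Counts over all genes were 1449, 2941 with spike-in scaling, 655 with no filter, 809 in the value table, 282 and 1013 with slide as a fixed and a random block, 2348 with the variance trend, and 642 to 2168 with 1 array left out. Cause was not tested, except that the filter changes the number of genes and the leave-outs the number of arrays.

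No pairing by replicate number was seen: deviations of same-numbered arrays correlated at 0.00107, 0.00948 and −0.0124 across genes. So few arrays cannot exclude a pairing. The replicate block gave 1175 calls over all genes and, among the channel genes, Grin3b higher and Kcne3 and Kcnj9 lower (limma adjusted p = 0.0428 for Kcnj9). Kcnj9 entered the test only through the control arrays, with no LIPUS array above background. The filter thus favoured its call, and no support is drawn from it.

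Of the 33 channel genes 14 kept their sign throughout, and those that turned were not called in the reported comparison. In the value table Scn11a read 1.25, Chrne −0.58, Gria3 0.25, Gabrq −0.15, Cacng3 −0.12 and Scn2a 0.086. With median centring Kcnma1 read −0.038 and Grina −0.021, and with quantile normalization Kcnma1 −0.058. With spike-in scaling Kcnma1 read −0.28, Grina −0.26, Gabrq −0.17, Grin1 −0.15, Cacna1c −0.11, Cacng3 −0.091, Chrne −0.074 and Gabre −0.035. With slide as a fixed block, as on the second slide alone, Gabrd read 0.32, Scn2a 0.29, Scnn1a 0.25, Grin2d 0.21, Gria3 0.095, Kcnj8 −0.021, Grina −0.28 and Kcnma1 −0.79. With slide as a random block Scnn1a read 0.046, Scn2a 0.042, Grina −0.047 and Kcnma1 −0.19. With 1 array left out the range was −0.20 to 0.42 for Kcnma1, −0.075 to 0.19 for Grina, −0.21 to 0.16 for Scn2a, −0.16 to 0.12 for Scnn1a, −0.27 to 0.70 for Gabre, −0.49 to 0.28 for Gabrr2, −0.64 to 0.062 for Kcna1, −0.15 to 0.26 for Gabrq and −0.35 to 0.024 for Scn11a.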

Other observations

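Some channel probes outside the comparison were above background in 1 group only. The limit differed between arrays, from 49.6 on LIPUS 3 to 133 on control 1. A reading can therefore pass on 1 array and fail on another. Of the 19 probes above the limit on 2 arrays, 6 were so on control arrays alone (Cacng2, Kcnab2, Kcnh1, Kcnh8, Kcnj5 and Scn3b), 4 on LIPUS arrays alone (Chrnb4, Kcng3 and Kcnq1 among them) and 9 on 1 array of each group. Kcnh1, a voltage-gated potassium channel gene, read 97, 166 and 103 brightness units in control and 29, 4 and 31 in LIPUS. Chrnb4, a nicotinic receptor subunit gene, read −13, 49 and 70 in control and 113, 119 and 20 in LIPUS. Both were picked after their values were seen. With no filter on background neither passed, with differences of −0.55 ± 0.24 for Kcnh1 and 0.73 ± 0.33 for Chrnb4 (limma adjusted p = 0.323 and 0.349).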
